A study of Homo sapiens with 3 samples.

Results

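The genes described here are 41 genes of glucose breakdown, pyruvate use and glucose synthesis, out of 19869 genes in an RNA sequencing table of Hep3B cells, a line from a human hepatocellular carcinoma. They were matched through their symbols and Ensembl identifiers, and all 41 were in the table. The study held 1 library in each of 3 groups. HKR3 cells were transfected with the pcDNA3.1 expression vector carrying HKR3, which the table lists as ZBTB48 and which encodes a telomere-binding zinc finger factor. The siTERT cells received a small interfering RNA whose label names TERT, the catalytic subunit of telomerase. The NT control is titled NT-Empty and labelled only with the transfection reagent Fugene, so it is unclear if these cells also carried an empty vector or a control RNA. All cells grew in DMEM with fetal bovine serum at normal oxygen, and the labels give no time of harvest. Differences are therefore between single libraries of a single line, with no spread between replicates to set them against, and no p-value or SD can be given.

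Levels are FPKM, fragments scaled to transcript length and library size, as deposited by the authors. ZBTB48 stood at 2842 FPKM in the HKR3 library, 4.89 FPKM in the library labelled siTERT and 4.91 FPKM in the control. TERT stood at 4.25, 5.37 and 4.69 FPKM in the same order, so the siTERT label had no lower TERT level behind it, and no direction given below for that library belongs to a measured loss of TERT. All 10 hepatocyte lineage markers examined, among them ALB, AFP and APOA1, were measured in all 3 libraries, with a summed level of 8194 FPKM in HKR3, 11659 in the library labelled siTERT and 11805 in the control. Leukocyte markers summed to 213, 397 and 399 FPKM, nearly all of it LYZ, with PTPRC and CD3E listed at 0, fibroblast markers summed to at most 0.220 FPKM, and the 4 endothelial markers in the table were listed at 0. Of the hepatocyte markers, FOXA2 was higher in HKR3, at 65.0 FPKM there, 33.4 FPKM in the library labelled siTERT and 30.4 FPKM in the control, and the others were lower, as was LYZ. Their part in the results was not tested. From bulk RNA, fewer cells of a kind and less RNA per cell cannot be told apart. Libraries held an estimated 1.16e+07 fragments for HKR3, 1.15e+07 for the library labelled siTERT and 1.04e+07 for the control.

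Glycolysis splits glucose into pyruvate in the cytosol and yields ATP and NADH. Pyruvate then either becomes lactate, which leaves the cell through monocarboxylate transporters, or enters mitochondria, where pyruvate dehydrogenase turns it into acetyl-CoA and pyruvate carboxylase into oxaloacetate. Hepatocytes also run the path backwards to release glucose in fasting, through enzymes that bypass the irreversible steps. Adult hepatocytes use liver isozymes such as liver pyruvate kinase, and liver cancers often carry the isozymes of fetal or proliferating tissue in their place.

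The levels of the 41 genes by library show which isozymes were measured in this line. GAPDH, which makes the first high-energy intermediate of the pathway, was highest of them at 3140 FPKM in HKR3, 4058 FPKM in the library labelled siTERT and 4125 FPKM in the control. TPI1, ALDOA, ENO1, LDHA and PKM followed, each at 391 FPKM or more in every library. PKLR, liver pyruvate kinase, was near the bottom and stood at 0.324, 0.657 and 0.594 FPKM in HKR3, the library labelled siTERT and the control. Together the 41 genes took 1.25% of the FPKM sum in HKR3, 1.60% in the library labelled siTERT and 1.55% in the control. In the plot of levels by library, 30 genes averaged 1 FPKM or more over the 3 libraries and 11 lay under it.

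**Figure D1:**
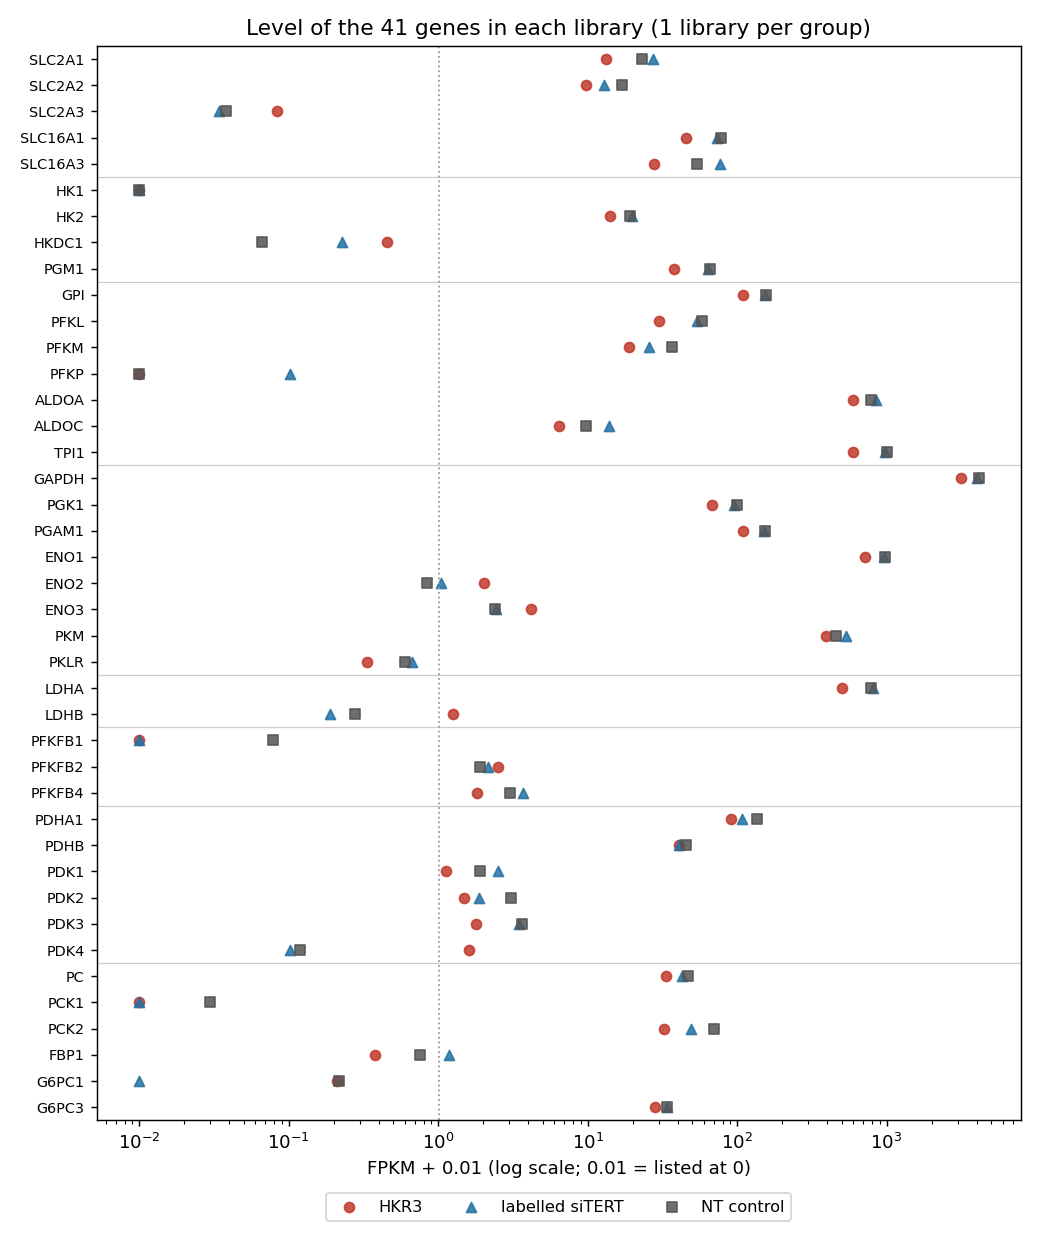
Level of each of the 41 genes in FPKM + 0.01 on a log axis, with 1 point per library: HKR3 (circles), the library labelled siTERT (triangles) and the NT control (squares). Grey lines separate the roles, from transport at the top to glucose synthesis at the bottom, and the dotted line marks 1 FPKM. GAPDH is highest at 3140, 4058 and 4125 FPKM, and the HKR3 point lies left of the control for 27 of the 30 genes averaging 1 FPKM or more.

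Of the 11 weak genes, HK1, the housekeeping hexokinase, was listed at 0 in all 3 libraries. PFKP was listed at 0 in HKR3 and in the control, and PFKFB1 and PCK1 in HKR3 and in the library labelled siTERT. The 13 protein genes of the mitochondrial genome, which every such cell uses, are also listed at 0 in this table, so these zeros are not read as absence. The others, HKDC1, PKLR, LDHB, SLC2A3, PDK4, FBP1 and G6PC1, had at most 1.60 FPKM in any library.

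Differences were calculated as log2(FPKM + 1) in the first library minus log2(FPKM + 1) in the second, and a gene was called at 2-fold. The pseudocount of 1 understates the change of weak genes. HKR3 and the library labelled siTERT were set against the same control library, so those comparisons are not independent. In the HKR3 library most of the 30 measured genes lay below the control by less than 2-fold. Of these 30, 27 were below 0, and 3 of 30 above 0, against 51.4% below and 48.6% above among the 10974 genes averaging 1 FPKM or more. At least 1.5-fold lower were 12 of 30, against 12.7% of all tested genes, and at least 1.5-fold higher were 2 of 30, against 15.3%. Of these 2, ENO2 was above 1 FPKM on average only through its level in HKR3, so its place among the 30 rests on the library where it was high. At least 2-fold lower was 1 of 30, PCK2, against 2.52% of all tested genes, a share near the background, and 0 of 30 were at least 2-fold higher, against 5.52%. The median difference was -0.52 over the 30 and -0.02 over all tested genes. Counting all 41, the median was -0.45 with 32 below 0, 7 above 0 and 2 at 0.

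Highly expressed genes as a whole lay lower in the HKR3 library, so the levels matter. Among genes of at least 100 FPKM, the median difference was -0.49 over the 9 members and -0.27 over the 914 other genes. Between 10 and 100 FPKM it was -0.75 over the 14 members and -0.05 over the 5412 others, and here all 14 members were below 0, against 53.7% of the others. Between 1 and 10 FPKM it was -0.45 over 7 members and 0.09 over the 4618 others. Scaling all libraries to the same sum, as in TPM, moved the median of all tested genes to 0.12 and that of the 30 to -0.38. With the median of genes of like expression removed, which sets all genes to 0, the median of the 30 was -0.40.

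**Figure D2:**
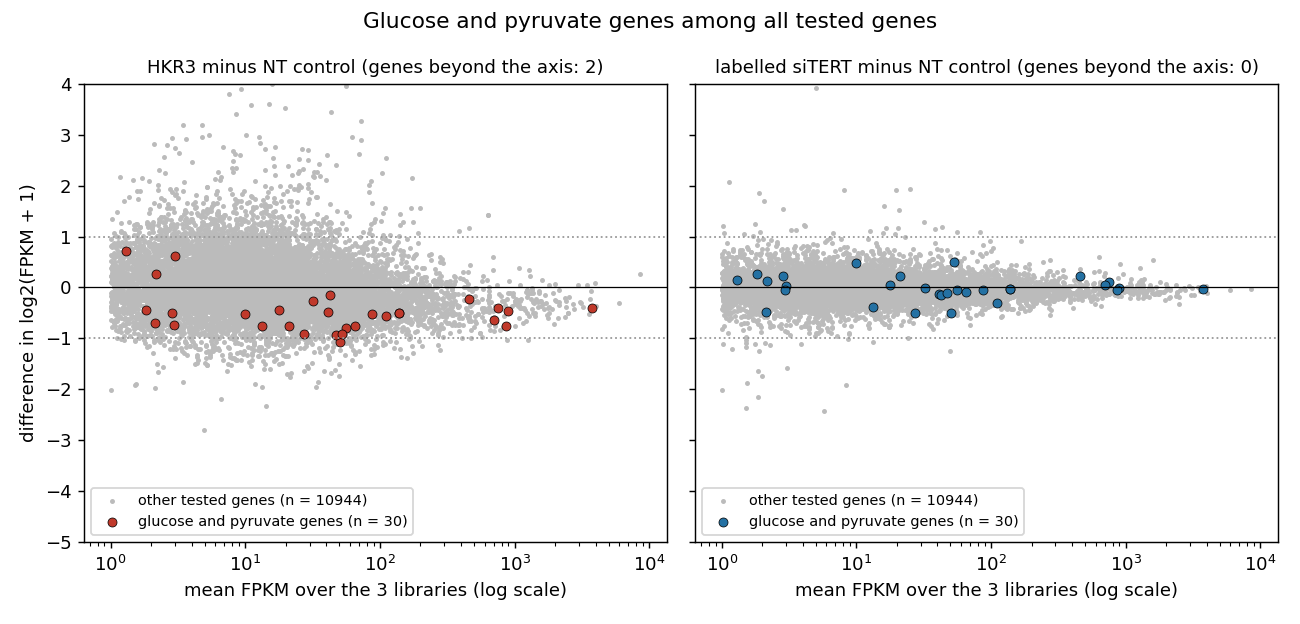
Difference in log2(FPKM + 1) against mean FPKM over the 3 libraries (log axis) for the 30 measured genes of the pathway (large points) and all other tested genes (grey), in HKR3 minus NT control on the left and the library labelled siTERT minus NT control on the right. Dotted lines mark 2-fold. On the left 27 of 30 lie below 0, with a median of -0.52, and on the right they lie on both sides of 0, with a median of -0.02.

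Of the transporters among the 41 genes, all 4 measured ones were lower in the HKR3 library by at least 1.5-fold, against 12.7% of all tested genes. Outside the 41, SLC2A6 and SLC2A8 were higher there and SLC2A4 lower, as given below. SLC16A3, the lactate exporter MCT4, stood at 27.9 FPKM in HKR3, 76.6 FPKM in the library labelled siTERT and 53.7 FPKM in the control. It was lowest in HKR3 and highest in the library labelled siTERT, with differences from the control of -0.92 and 0.51. SLC16A1, the transporter MCT1, stood at 45.7 FPKM in HKR3, 73.1 FPKM in the library labelled siTERT and 77.6 FPKM in the control, a difference of -0.75 for HKR3. The sum of both lactate transporters was 73.6 FPKM in HKR3, 150 FPKM in the library labelled siTERT and 131 FPKM in the control.

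SLC2A1, the basal glucose transporter GLUT1, stood at 13.3 FPKM in HKR3, 27.3 FPKM in the library labelled siTERT and 23.1 FPKM in the control. SLC2A2, the low-affinity liver transporter GLUT2, stood at 9.79, 12.9 and 17.1 FPKM in the same order. Both were at 0.58 or less of the control in HKR3, with ratios of 0.577 and 0.572. In the library labelled siTERT they lay on either side of the control, SLC2A1 with a difference of 0.23 and SLC2A2 with -0.38. SLC2A3, the transporter GLUT3, was at most 0.0732 FPKM. It shares 39.4% of its coding transcript sequence, in units of 31 bases, with other genes in the table, most with SLC2A14.

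HK2, the inducible hexokinase that traps glucose in the cell, made nearly all of the hexokinase level listed. It stood at 14.03 FPKM in HKR3, 19.9 FPKM in the library labelled siTERT and 19.3 FPKM in the control. HK1 was listed at 0, which is not read as absence, so the share of HK2 among hexokinases is not established. HKDC1, a further hexokinase, stood at 0.446, 0.219 and 0.0561 FPKM, on an estimated 19, 9 and 2 fragments. HKDC1 ran opposite to HK2 in the HKR3 library, and its ratio to the control on these fragments was 8.53, with an exact 95% counting interval from 2.06 to 75.5. Its ratio to the library labelled siTERT was 2.09, from 0.899 to 5.23, so a difference from that library was not detectable at this depth. All such intervals use the shortest coding transcript of the gene and cover counting error only, not differences between cultures. PGM1, which links glucose phosphate to glycogen, stood at 37.7 FPKM in HKR3, 63.8 FPKM in the library labelled siTERT and 66.1 FPKM in the control, and its difference of -0.79 in HKR3 lay lower than that of all but 5.67% of tested genes.

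In upper glycolysis all 6 measured genes were below the control in HKR3, against 51.4% of all tested genes. By at least 1.5-fold were 3 of them, against 12.7%. PFKL, the liver subunit of phosphofructokinase, which catalyses the committed step, stood at 29.9 FPKM in HKR3, 53.8 FPKM in the library labelled siTERT and 58.3 FPKM in the control. PFKM, the muscle subunit, stood at 19.0, 25.9 and 36.9 FPKM in the same order. Phosphofructokinase was thus the glycolytic step with the largest summed difference in HKR3, 48.9 FPKM there and 95.2 FPKM in the control, or -0.95. In the library labelled siTERT the summed level was 79.8 FPKM, and PFKM alone lay clearly under the control, with a difference of -0.50 against -0.11 for PFKL.

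TPI1, which interconverts the triose phosphates, stood at 597 FPKM in HKR3, 971 FPKM in the library labelled siTERT and 1004 FPKM in the control, a difference of -0.75 in HKR3. GPI, the isomerase after hexokinase, stood at 110 FPKM in HKR3, 153 FPKM in the library labelled siTERT and 155 FPKM in the control. ALDOA, the main aldolase, stood at 599, 855 and 789 FPKM, and ALDOC, the brain aldolase, at 6.43, 13.9 and 9.70 FPKM. Both aldolases were lowest in HKR3 and highest in the library labelled siTERT, where ALDOC had a difference of 0.48 from the control. TPI1 shares 19.0% of its sequence with other genes, most with the pseudogene TPI1P1, and ALDOA shares 61.8%, most with AC093512.2. Neither of these is a row of the table, so the split of their reads is uncertain. The same limit holds for GAPDH, which shares 28.2%, most with GAPDHP1, and for GPI, which shares 19.0%, most with AC092073.1. HK2 shares 15.9%, PGK1 13.9% and LDHA 13.2%.

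Lower glycolysis had a median difference of -0.39 in HKR3 over 7 measured genes. These include ENO2, kept only through its level in HKR3, and ENO3, both higher there, so the median is not set against that of other steps. The 5 genes below 0 had differences from -0.53 for PGK1 to -0.22 for PKM. PGK1, the first enzyme to yield ATP, stood at 68.5 FPKM in HKR3, 95.7 FPKM in the library labelled siTERT and 99.3 FPKM in the control. PGAM1, the mutase that follows, stood at 109.8, 152 and 155 FPKM, but shares 49.2% of its sequence with other genes, among them PGAM4. ENO1, the main enolase, stood at 715, 968 and 979 FPKM, and GAPDH had a difference of -0.39. The HKR3 values of PGK1, PGAM1, ENO1 and GAPDH were between 0.690 and 0.761 of the control, while those of the library labelled siTERT were between 0.964 and 0.989 of it.

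PKM, the pyruvate kinase gene that gives the M1 and M2 forms, stood at 391 FPKM in HKR3, 532 FPKM in the library labelled siTERT and 456 FPKM in the control. Its difference of -0.22 in HKR3 was among the smallest of the highly expressed members, and it turned to 0.08 once the median of genes of like expression was removed. Gene-level values cannot separate the M1 and M2 forms. LDHA, the lactate dehydrogenase subunit that favours lactate formation, stood at 503 FPKM in HKR3, 815 FPKM in the library labelled siTERT and 783 FPKM in the control, a difference of -0.64 in HKR3.

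Of the 30 measured genes, the 3 that stood higher in HKR3 were ENO2, ENO3 and PFKFB2. Of the 11 weak genes, HKDC1, LDHB and PDK4 stood higher, and SLC2A3 had an estimated 3 fragments in HKR3 and 1 in the control, too few to show a difference. ENO2, the neuronal enolase, stood at 2.02 FPKM in HKR3, 1.03 FPKM in the library labelled siTERT and 0.830 FPKM in the control, and ENO3, the muscle enolase, at 4.16, 2.43 and 2.38 FPKM. Their ratios to the control in HKR3 on estimated fragments were 2.5, with a 95% counting interval from 1.33 to 4.99, and 1.74, from 1.13 to 2.74. LDHB, the subunit that favours pyruvate, stood at 1.26, 0.178 and 0.269 FPKM, on 19, 3 and 4 fragments, a ratio of 4.27 in HKR3 with an interval from 1.42 to 17.2. LDHB shares 46.8% of its sequence with other genes, most with AC010197.2, which is no row of the table. Against the main isozymes these levels were slight, since ENO2 and ENO3 made 0.280% and 0.577% of summed enolase FPKM in HKR3, and LDHB 0.249% of lactate dehydrogenase.

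**Figure D3:**
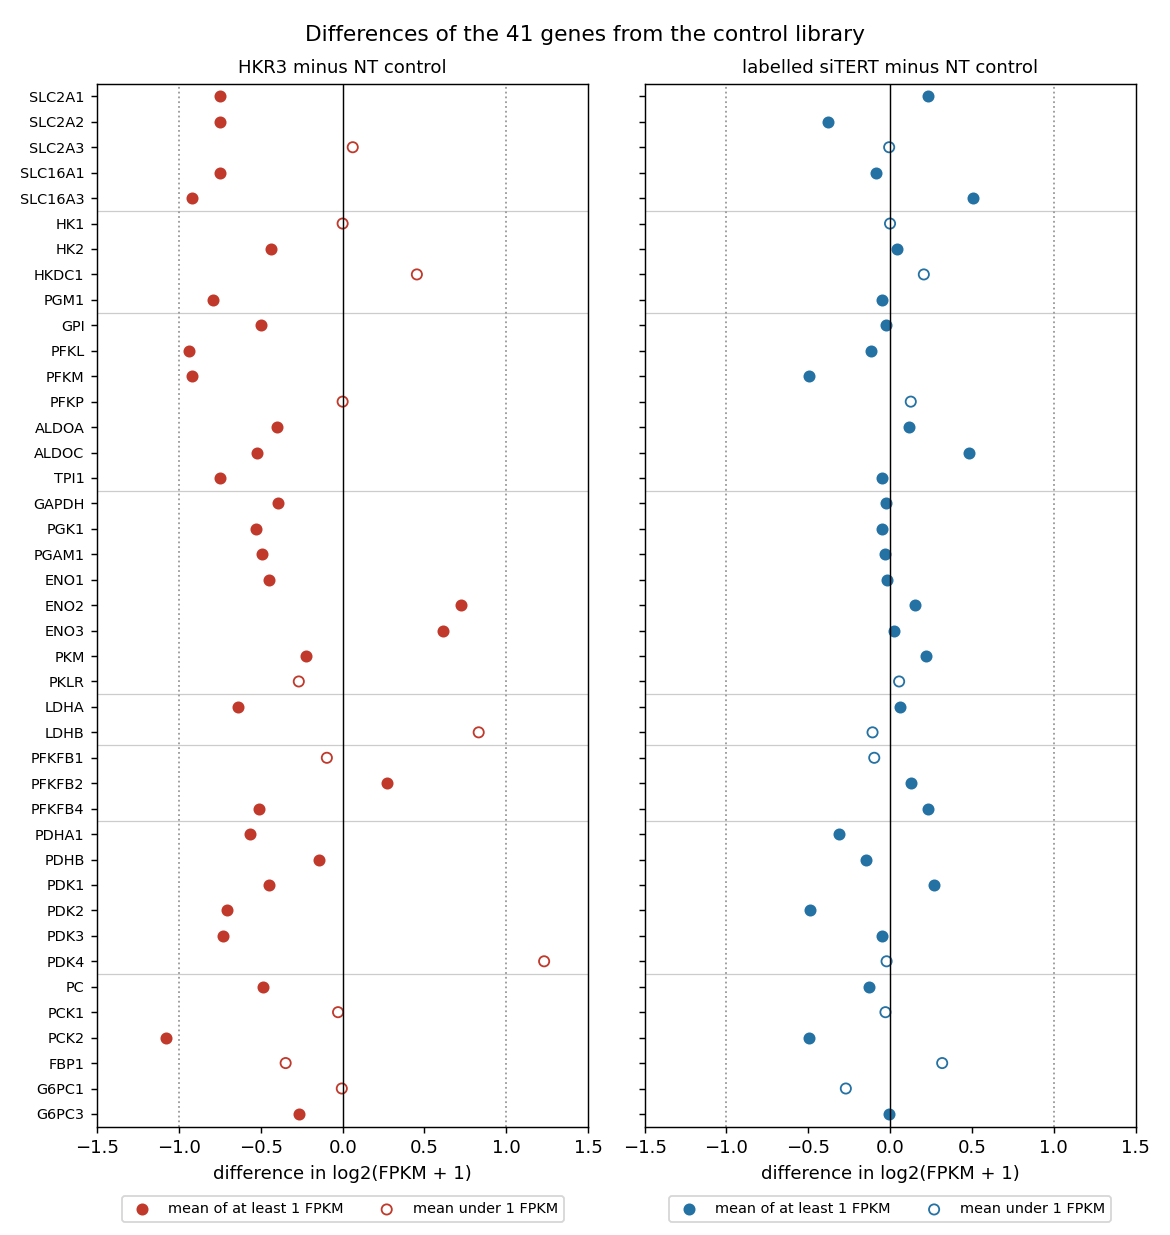
Difference in log2(FPKM + 1) for each of the 41 genes, HKR3 minus NT control on the left and the library labelled siTERT minus NT control on the right. Filled points have a mean of at least 1 FPKM, open points less, and dotted lines mark 2-fold. On the left PCK2 is lowest at -1.08 and PDK4 highest at 1.23, and on the right all genes lie between -0.50 and 0.51.

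The PFKFB enzymes set the level of the fructose bisphosphate that activates phosphofructokinase. PFKFB4 stood at 1.81 FPKM in HKR3, 3.69 FPKM in the library labelled siTERT and 3.0 FPKM in the control, a difference of -0.51 in HKR3. PFKFB2, the heart isozyme, stood at 2.5, 2.16 and 1.90 FPKM, a difference of 0.27. The counting interval of its HKR3 ratio to the control ran from 0.959 to 1.81, reckoned on its shortest coding transcript of 3494 bases. The longest has 7094 bases and would give a narrower interval, so a difference was left undecided. PFKFB2 made 58.0% of the summed PFKFB1, PFKFB2 and PFKFB4 level in HKR3, 37.0% in the library labelled siTERT and 38.3% in the control. PFKFB3, the inducible isozyme outside the 41, was higher than any of them at 13.1, 16.8 and 10.3 FPKM.

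Pyruvate dehydrogenase is switched off by its kinases PDK1 to PDK4. PDK4, the kinase induced by fasting and glucocorticoids, stood at 1.60 FPKM in HKR3, 0.0926 FPKM in the library labelled siTERT and 0.109 FPKM in the control. On an estimated 67, 4 and 4 fragments its ratio to the control in HKR3 was 15.0, with a 95% counting interval from 5.61 to 56.8. PDK4 had the largest difference of the 41 genes at 1.23, although its mean over the 3 libraries kept it under the limit of 1 FPKM, and it lay above both other libraries by more than counting error.

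PDK2 and PDK3 were lower in the HKR3 library. PDK3 stood at 1.79 FPKM in HKR3, 3.49 FPKM in the library labelled siTERT and 3.64 FPKM in the control, and PDK2 at 1.48, 1.88 and 3.04 FPKM. Their ratios to the control on fragments were 0.495, with an interval from 0.324 to 0.745, and 0.485, from 0.323 to 0.718. PDK1, the kinase induced by low oxygen, stood at 1.12, 2.49 and 1.90 FPKM. Its HKR3 ratio to the control had an interval from 0.322 to 1.09, reckoned on its shortest coding transcript of 1515 bases. The longest has 14193 bases and would give more fragments and a narrower interval, so a difference from the control was left undecided. Its HKR3 ratio to the library labelled siTERT was 0.459, with an interval from 0.256 to 0.798. The composition therefore differed more than the sum. PDK4 made 26.7% of summed kinase FPKM in HKR3, 1.16% in the library labelled siTERT and 1.25% in the control, while the sum was 6.00, 7.95 and 8.70 FPKM.

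**Figure D4:**
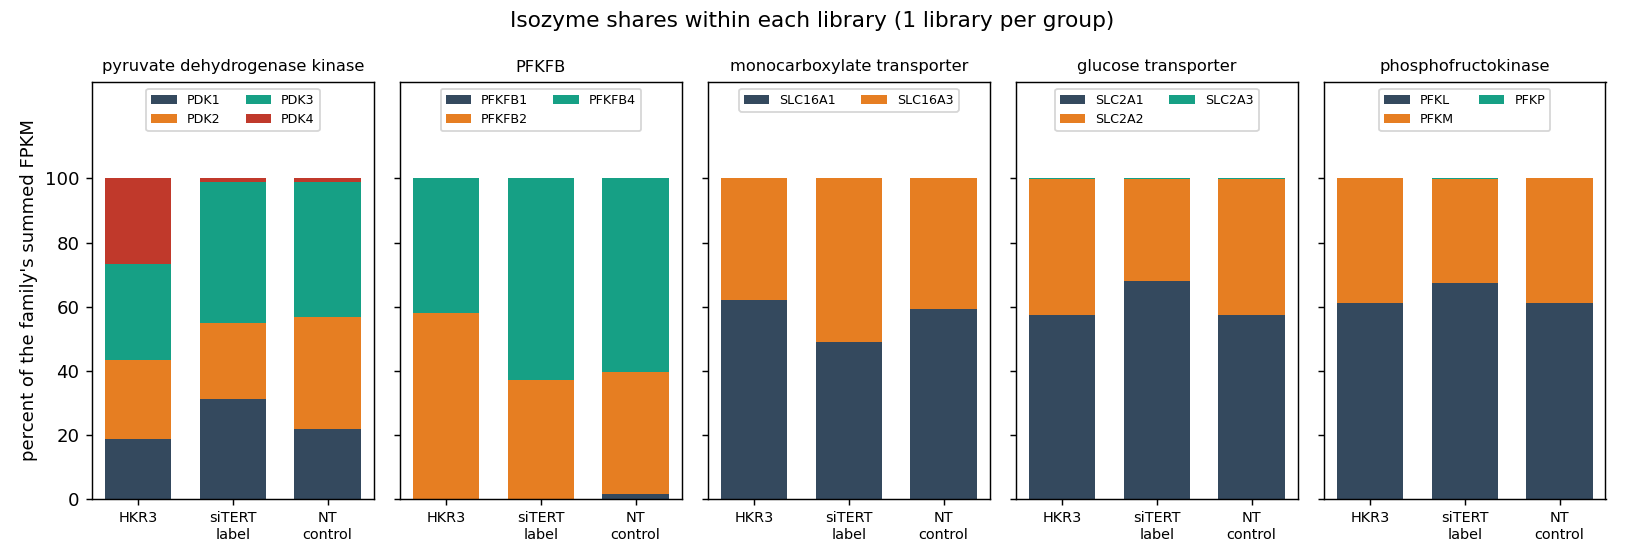
Share of each isozyme in the summed FPKM of its family, in percent, as stacked bars for HKR3, the library labelled siTERT and the NT control, for 5 families. Only genes among the 41 are summed, so PFKFB3, SLC2A8 and SLC16A7, among others, are left out. PDK4 takes 26.7% of the pyruvate dehydrogenase kinases in HKR3, 1.16% in the library labelled siTERT and 1.25% in the control. SLC16A3 takes 37.9%, 51.2% and 40.9% of the sum of SLC16A1 and SLC16A3.

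PDHA1, the catalytic alpha subunit of pyruvate dehydrogenase, stood at 91.2 FPKM in HKR3, 109 FPKM in the library labelled siTERT and 135 FPKM in the control. Both treated libraries lay under the control, with differences of -0.56 and -0.31. PDHB, the beta subunit of the same complex, stood at 40.9 FPKM in HKR3, 40.8 FPKM in the library labelled siTERT and 45.3 FPKM in the control. PDHB had a difference of -0.14 in HKR3, smaller than that of PDHA1.

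Of the glucose synthesis genes, PCK2 stood out. PCK2, the mitochondrial form of phosphoenolpyruvate carboxykinase, stood at 32.6 FPKM in HKR3, 49.4 FPKM in the library labelled siTERT and 70.0 FPKM in the control. Its difference of -1.08 in HKR3 was the largest of the 30 measured genes, and 1.84% of tested genes had a lower one. It did not reach 2-fold once libraries were scaled to the same sum, or with a pseudocount of 5. The library labelled siTERT lay between the others, with a difference of -0.50. PCK1, the cytosolic form that dominates in fasting liver, was at most 0.0196 FPKM.

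PC, pyruvate carboxylase, stood at 33.2 FPKM in HKR3, 42.9 FPKM in the library labelled siTERT and 47.0 FPKM in the control. G6PC3, the widely expressed glucose phosphatase, stood at 28.2, 34.0 and 34.2 FPKM, while G6PC1, the liver form, was at most 0.206 FPKM. FBP1, the fructose bisphosphatase that opposes phosphofructokinase, stood at 0.369, 1.17 and 0.743 FPKM, on 5, 14 and 8 fragments. The enzymes special to fasting liver were thus barely measured in any library, and differences in FBP1 were not detectable at this depth, with an interval of the HKR3 ratio to the control from 0.144 to 1.95.

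The promoters of 4 members, picked by hand, are shown as examples: PFKL, ENO1 and PGK1, lower in HKR3, and PDK4, higher. Each line gives the 250 bases before the RefSeq start, from RefSeq, build GRCh38.p14, read 5′ to 3′ on the strand of the gene. Capitals mark ACGTG and GCGTG, the core letters bound by hypoxia-inducible factors, and TTAGGG, the telomeric repeat unit, each on either strand. These windows are at chr21:44299803-44300052 on the plus strand for PFKL, chr1:8878687-8878936 on the minus strand for ENO1, chrX:78103998-78104247 on the plus strand for PGK1 and chr7:95596517-95596766 on the minus strand for PDK4.
PFKL: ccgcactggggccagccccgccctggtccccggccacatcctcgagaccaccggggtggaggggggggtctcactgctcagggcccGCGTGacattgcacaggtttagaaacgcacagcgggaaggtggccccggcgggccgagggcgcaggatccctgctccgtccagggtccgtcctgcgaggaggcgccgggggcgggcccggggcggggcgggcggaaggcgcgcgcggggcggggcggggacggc
ENO1: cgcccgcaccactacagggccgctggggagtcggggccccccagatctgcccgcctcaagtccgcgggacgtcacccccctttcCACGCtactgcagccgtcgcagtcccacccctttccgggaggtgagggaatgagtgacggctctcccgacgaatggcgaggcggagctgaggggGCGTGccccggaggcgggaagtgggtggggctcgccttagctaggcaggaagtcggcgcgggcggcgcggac
PGK1: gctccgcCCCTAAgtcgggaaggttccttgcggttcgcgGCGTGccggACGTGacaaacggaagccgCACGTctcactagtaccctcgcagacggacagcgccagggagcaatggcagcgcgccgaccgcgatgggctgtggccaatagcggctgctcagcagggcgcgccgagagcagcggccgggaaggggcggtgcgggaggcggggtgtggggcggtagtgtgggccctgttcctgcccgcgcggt
PDK4: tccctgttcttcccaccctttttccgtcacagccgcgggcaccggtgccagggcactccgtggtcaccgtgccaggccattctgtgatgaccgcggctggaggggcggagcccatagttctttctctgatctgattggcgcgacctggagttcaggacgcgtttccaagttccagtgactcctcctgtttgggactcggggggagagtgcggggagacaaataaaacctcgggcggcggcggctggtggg

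PGK1 held ACGTG at 2 places, GCGTG at 1 and TTAGGG at 1, ENO1 held GCGTG at 2, PFKL held GCGTG at 1, and PDK4 held none of these. Other members differed from these examples. PCK2, PGAM1, PKM and SLC2A2, lower in HKR3, held neither ACGTG nor GCGTG. ENO2, higher in HKR3, held ACGTG, and ENO3, also higher, held GCGTG in a window. A link of these letters to direction was not tested. RefSeq windows matched 37 of the 41 genes, with 73 windows in all. ACGTG was in 35.6% of the 73 windows and in 18.5% of all 35116 windows, and CACGTG, which always contains ACGTG, in 15.1% and 6.34%. GCGTG was in 27.4% and 32.2%, and TTAGGG in 11.0% and 7.94%. Windows of a gene overlap, and the median GC content was 64.8% in the windows of these genes and 58.0% in all windows. A match of letters is a description of the window and not a site.

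In the library labelled siTERT, in which TERT was not lower, the genes lay close to the control. Of the 30 measured genes, 0 lay 2-fold or more above the control and 0 as far below it, against 0.282% and 0.200% of all tested genes. Also 0 of 30 were past 1.5-fold in either direction, against 1.69% higher and 1.24% lower. The median difference was -0.02 over the 30 and -0.01 over all tested genes, with 18 of 30 below 0, against 52.6%, and 12 of 30 above 0, against 47.4%. The largest differences were those of SLC16A3 at 0.51, ALDOC at 0.48, PFKM and PCK2 at -0.50 each, and PDK2 at -0.49. SLC16A3 had a ratio to the control of 1.43 on estimated fragments, with a 95% counting interval from 1.32 to 1.54, and PCK2 of 0.705, from 0.649 to 0.765. PDK2 had a ratio of 0.610 there, from 0.419 to 0.882.

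HKR3 was also set directly against the library labelled siTERT, a difference that uses no value of the control, although the control counts in the mean by which genes were kept. Below 0 were 26 of 30, against 50.5% of all tested genes, and above 0 were 4 of 30, against 49.4%, and at least 1.5-fold lower were 11 of 30, against 9.71%. At least 2-fold lower were 2 of 30, against 1.38%, and 0 of 30 were at least 2-fold higher, against 4.11%. The median was -0.48 over the 30 and -0.01 over all. The 2 genes past 2-fold were SLC16A3 with -1.43 and ALDOC with -1.01, and SLC2A1 lay just short with -0.98. For these 3 genes the library labelled siTERT stood above the control and HKR3 below it. PDHB had a difference of 0.00 in this comparison.

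Genes next to the pathway were examined in the same way in the HKR3 library. Of 11 measured further pathway genes, 2 lay 2-fold or more above the control, BPGM and SLC2A6, against 5.52% of all tested genes. As far below it was 1, SLC2A4, against 2.52%. The median difference was 0.29. BPGM, which diverts a glycolytic intermediate to bisphosphoglycerate, stood at 19.6 FPKM in HKR3, 8.90 FPKM in the library labelled siTERT and 9.05 FPKM in the control. SLC2A6, a lysosomal glucose transporter, stood at 4.72, 3.90 and 1.24 FPKM, and was at least 2-fold higher in the library labelled siTERT too, with a difference of 1.13. SLC2A4, the insulin-responsive transporter GLUT4, stood at 0.747, 1.96 and 2.91 FPKM, and SLC2A8, an intracellular transporter, at 125, 70.7 and 72.2 FPKM. Of the 4, SLC2A4 was lower in HKR3 and the others higher.

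Glycogen genes had a median of -0.21 in HKR3 over 14 measured genes, with 2 at least 2-fold lower, against 2.52% of all tested genes. GYS1, muscle glycogen synthase, stood at 9.70 FPKM in HKR3, 26.5 FPKM in the library labelled siTERT and 26.1 FPKM in the control, and GYG2, the liver primer of glycogen, at 24.2, 49.0 and 58.5 FPKM. PPP1R3B, a subunit that targets a phosphatase to glycogen, stood higher, at 12.6, 7.72 and 6.43 FPKM, with a difference of 0.87, and PHKB, a subunit of phosphorylase kinase, had -0.39. PYGM, muscle glycogen phosphorylase, averaged under 1 FPKM and stood at 1.27, 0.179 and 0.0654 FPKM. Genes of fructose, galactose and mannose entry had a median of -0.19 over 10, with 2 at least 2-fold lower, against the same 2.52%. The 2 were KHK, which phosphorylates fructose, at 1.22, 3.39 and 4.10 FPKM, and GALK1, galactokinase, at 18.2, 36.1 and 40.3 FPKM. AKR1B1, aldose reductase, had a difference of 0.54 and SORD, sorbitol dehydrogenase, of -0.52.

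None of the 8 pentose phosphate genes, 8 pyruvate dehydrogenase partners or 20 citrate cycle genes was past 2-fold in HKR3. Of all tested genes 5.52% were that far above the control and 2.52% below it. The medians of these lists were -0.16, -0.19 and -0.28. PGD, an NADPH-forming enzyme of the pentose phosphate pathway, stood at 244 FPKM in HKR3, 161 FPKM in the library labelled siTERT and 155 FPKM in the control. PGLS had a difference of -0.47, TALDO1 of -0.38 and H6PD of -0.27. MPC2, a subunit of the mitochondrial pyruvate carrier, stood at 82.6, 122 and 150 FPKM, while DLD, PDPR and PDP2 had differences of -0.42, -0.36 and 0.35. Of the citrate cycle list 19 of 20 were below 0, against 51.4% of all tested genes. That share was 53.8% among genes of 10 to 100 FPKM, where most of the list lay, and 74.6% among those of at least 100 FPKM. Among the 19 were IDH1 with -0.84, SDHA with -0.62, SUCLG1 with -0.60 and IDH2 with -0.59.

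**Figure D5:**
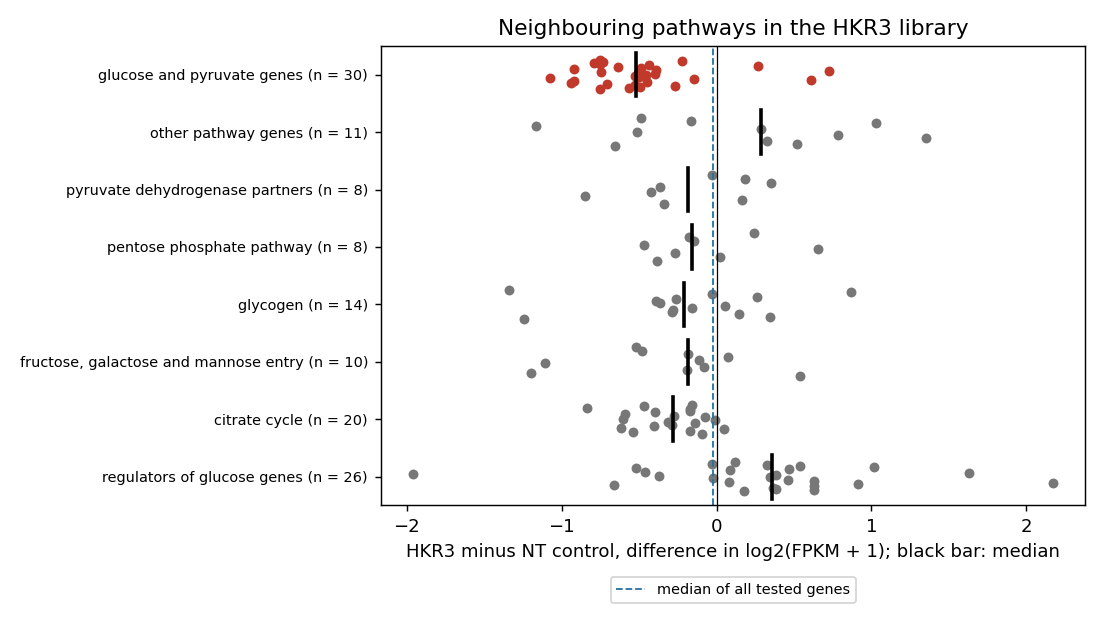
Difference in log2(FPKM + 1), HKR3 minus NT control, for each gene with a mean of at least 1 FPKM in the 30 genes described here (top) and 7 neighbouring lists. Black bars are medians and the dashed line is the median of all tested genes at -0.02. The 30 genes have a median of -0.52, the citrate cycle -0.28 and the regulators 0.36.

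Regulators of glucose genes had a median of 0.36 in HKR3 over 26 measured genes. Of these, 3 lay 2-fold or more above the control, TXNIP, NR3C1 and CRTC2, against 5.52% of all tested genes. As far below it was 1, MYCN, against 2.52%. TXNIP, which restrains glucose uptake and is induced by glucose, stood at 71.1 FPKM in HKR3, 11.7 FPKM in the library labelled siTERT and 15.0 FPKM in the control. NR3C1, the glucocorticoid receptor, stood at 10.9, 3.73 and 2.85 FPKM, and CRTC2, a coactivator of CREB in fasting liver, at 36.4, 17.3 and 17.5 FPKM. MYCN, a proto-oncogene related to MYC, stood at 12.1, 38.4 and 50.2 FPKM, while MYC stood at 73.4, 62.0 and 57.4 FPKM. HIF1A, the oxygen-regulated factor that drives many glycolytic genes, stood at 68.3, 58.8 and 54.3 FPKM. TXNIP was thus highest and MYCN lowest in HKR3. HIF1A and MYC lay within 1.5-fold of the control in both treated libraries, with differences of 0.33 and 0.35 in HKR3. Whether any of these regulators had a part in the results was not tested. SIK1 was past 2-fold in the library labelled siTERT only, with 3.29 FPKM against 0.0215 FPKM in the control, but its sum with its near-identical copy ENSG00000275993 was 25.7 FPKM there and 26.0 FPKM in the control.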

How the data were processed

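Sequencing of messenger RNA libraries (stranded TruSeq kit, per the labels' protocols) gave 1 deposited table with FPKM per gene, as the authors made it. The submitters' processing notes name hg19, the aligner STAR (2.5.0), Cufflinks and Cuffdiff (2.2.1). For settings, filters, strand use and further scaling between libraries, no source used here says anything. If FPKM was scaled by mapped fragments alone, a gene with a large share lowers the others. In HKR3, ZBTB48 stood at 2842 FPKM of an FPKM sum of 535516, and such an effect was not tested.

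Symbols matched 19310 of 19869 identifiers. Differences used a pseudocount of 1 FPKM, the 10974 genes averaging 1 FPKM or more over the 3 libraries, and a size rule of 2-fold, since 1 library per group allows no test. Counts at 1.5-fold and below 0 were added after seeing the data. The members, gene lists and rules were chosen with earlier results of these data known. The genes named are all 41 members, plus up to 4 genes per further list with the largest absolute difference in HKR3 and any past 2-fold. HIF1A, MYC, PFKFB3 and ENSG00000275993 fall outside it and were picked with their values in view.

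Fragments per library were estimated from the FPKM worth of 1 fragment in weak genes with 1 transcript of at least 1000 bases (GENCODE v29). They rest on 59 of 109, 72 of 124 and 64 of 114 weak genes within 25% of that value, for HKR3, siTERT and the control. Counting intervals are exact binomial at 95%. The calculation was tested on simulated data (Python 3.11.15, numpy 2.4.6, pandas 2.3.3, scipy 1.17.1).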

Additional observations from a re-analysis of the deposited data

How the results depend on the processing

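All values are single libraries, so culture, transfection and library cannot be told apart from treatment, and depth limits genes under about 1 FPKM. For HKR3 against the control, the median difference of the members was -0.38 with libraries scaled to the same sum and -0.40 with the median of like-expressed genes removed. The number at least 2-fold lower was 0 with a pseudocount of 5, with the same sum and with like-expressed genes removed, and the number at least 2-fold higher was 1 with a pseudocount of 0.1 (ENO2) or with no filter on low values (PDK4). For HKR3 against the library labelled siTERT, the median was -0.36 with the same sum and -0.35 with like-expressed genes removed. The number at least 2-fold lower was 4 with a pseudocount of 0.1 but 1 at 5, with the same sum or with the same median ratio, and the number at least 2-fold higher was 1 with no filter. For the library labelled siTERT against the control, 1 gene was at least 1.5-fold lower with a pseudocount of 0.1. The cause was not tested. Counts over all genes at least 2-fold from the control in HKR3 were 874 higher and 488 lower with a pseudocount of 0.1, 238 and 93 with 5 in its place, and 841 and 165 with the same sum, against 606 and 277. In the library labelled siTERT they were 103 and 57 at 0.1 and 10 and 3 at 5, against 31 and 22. The 20 members with the largest differences in HKR3 and the 10 in the library labelled siTERT gave 202 values under the alternatives run. All had the sign of the main value. A change of pseudocount or filter cannot turn a sign, so only rescaling or the removal of like-expressed genes could have done so. Outside these members, PKM and PDHB changed sign in HKR3, and ENO1, ENO3, G6PC3, GAPDH, GPI, PGAM1 and TPI1, all close to 0, in the library labelled siTERT. No paired analysis was possible because each group held 1 library.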
